A study of Mus musculus with 2 samples.

Results

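The AMPA and NMDA receptor subunit genes Gria1, Gria2, Gria3, Gria4, Grin1, Grin2a, Grin2b, Grin2d and Grin3a were followed across the cell classes of the mouse dorsal telencephalon at embryonic day 16.5. The 9 genes were taken by symbol from the 32285 genes of the count tables, and each symbol matched 1 row. Droplet-based single-cell RNA sequencing (10x Genomics single cell 3' chemistry) had been carried out on dissociated cells of 2 wild-type (WT) embryonic libraries, here called WT replicate 1 and WT replicate 6. The series concerns a conditional knockout of Dot1l, a histone methyltransferase gene, with the Emx1-Cre mouse line. The knockout was not analysed here, so no genotypes were compared. Both libraries carry the genotype label WT, a tissue label of brain hemispheres and a protocol for the dorsal telencephalon, with no age beyond the embryonic day, strain, litter or sex. The labels do not say whether WT embryos carry the Cre or the floxed allele, nor whether each library came from 1 embryo, so p-values measure only the spread between these 2 libraries.

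Fast excitatory transmission in the brain runs through glutamate-gated ion channels. AMPA receptors are tetramers of the subunits GluA1 to GluA4, encoded by Gria1 to Gria4, and carry the fast current; a receptor that contains edited GluA2 passes little calcium, whereas a receptor without GluA2 is calcium-permeable. NMDA receptors pair the obligatory GluN1 subunit (Grin1), which binds glycine or D-serine, with GluN2 subunits, which bind glutamate and set the kinetics and the magnesium block, or with GluN3 subunits, which lower calcium permeability. GluN2B (Grin2b) and GluN2D (Grin2d) are known as early subunits, and GluN2A (Grin2a) is known for its rise after birth. Immature neurons express these receptors before most synapses have formed, and in migrating interneurons glutamate receptors are among the known inputs that affect movement.

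On the assembly GRCm38.p6 (mm10, the build of the count tables), RefSeq places Gria1 on chromosome 11, 57011571 to 57330244, Gria2 on chromosome 3, 80681450 to 80804227, Gria3 on chromosome X, 41400819 to 41678601 and Gria4 on chromosome 9, 4417893 to 4796234. Grin1 lies on chromosome 2, 25291177 to 25319187, Grin2a on chromosome 16, 9567901 to 9996083, Grin2b on chromosome 6, 135713221 to 136173615, Grin2d on chromosome 7, 45831883 to 45871194 and Grin3a on chromosome 4, 49661611 to 49846023. The gene spans run from 28 kb for Grin1 to 460.4 kb for Grin2b. The sources used here do not say if intronic reads were counted, and a long gene would gain more from them, so each gene is compared only with itself between cell classes.

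The bases before the annotated start are shown for Gria4 and Grin1, the members with a RefSeq promoter window (GRCm38.p6) that begins at the outer end of the gene; the AMPA subunit Gria4 differed widely between cell classes and the obligatory NMDA subunit Grin1 did not pass the test between interneurons and excitatory neurons. Each window holds the 250 bases before the start, 5′ to 3′ on the gene's own strand (minus for both), at chr9:4796235-4796484 for Gria4 and chr2:25319188-25319437 for Grin1. Capitals mark CpG dinucleotides, the sites of DNA methylation.
Gria4: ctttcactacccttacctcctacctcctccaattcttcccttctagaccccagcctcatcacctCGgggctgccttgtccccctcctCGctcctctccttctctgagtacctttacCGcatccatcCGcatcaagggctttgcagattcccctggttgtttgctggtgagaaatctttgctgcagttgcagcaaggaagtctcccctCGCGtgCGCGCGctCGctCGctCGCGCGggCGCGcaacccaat
Grin1: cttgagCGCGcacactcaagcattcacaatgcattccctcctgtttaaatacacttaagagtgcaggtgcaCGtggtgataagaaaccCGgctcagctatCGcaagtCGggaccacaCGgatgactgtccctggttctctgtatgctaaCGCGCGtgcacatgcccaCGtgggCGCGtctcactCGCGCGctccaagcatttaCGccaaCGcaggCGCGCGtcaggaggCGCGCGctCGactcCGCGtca
The Gria4 window held 16 CpG dinucleotides and the Grin1 window 27, against a median of 6 over 32851 RefSeq windows of this length, and 25.4% and 8.56% of those windows held as many or more. Of all windows, 32.7% held the GC box GGGCGG on either strand and 1.55% held the cyclic AMP response element TGACGTCA. The E-box read by many bHLH factors, CAGCTG, was in 13% of the windows, and the core of the NRF-1 motif, GCGC and GCGC with any 2 bases between, in 4.98%. The TATA box, TATAAA, was in 12.4%. Of these 5 motifs, the Gria4 window held 1 match, to the NRF-1 core, which began 20 bases before the start. The Grin1 window held no match to any of them.

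Cells with 1500 to 60000 UMIs (unique molecular identifiers, 1 per captured mRNA molecule) and under 10% mitochondrial UMIs were kept, and likely doublets were left out. The 2 libraries retained 7219 and 7352 cells (WT replicate 1, then WT replicate 6), with medians of 6521 and 6313 UMIs. Cell classes were gated on marker genes that include no receptor subunit: 13 gates took 6998 of the 14571 cells, 12 of which are reported on their own, and 59 barcodes occurred in both libraries, 26 of them among cells that passed the filter. Newborn excitatory neurons carried Neurod2 or Neurod6 with at least 3 of Neurod1, Unc5d, Rnd2 and Tiam2, and the layer 5 and layer 6 gates held no Neurod1 or Rnd2 UMI. MGE interneurons were gated on Lhx6 and CGE interneurons on 2 or more of Prox1, Nr2f2, Adarb2 and Htr3a without Lhx6. UMIs were summed per gate and library, and a level is given in CPM, the counts of a gene per 1000000 UMIs of the same sum. Sums ranged from 377519 UMIs (Sst-expressing interneurons, WT replicate 6) to 10645278 (newborn excitatory neurons, WT replicate 1). The libraries differed in their summed counts by more than sampling noise (chi-square per degree of freedom 22.9) and were treated as 2 samples. Of 38 marker genes that were not used for gating, 24 were highest in the gate they belong to and 36 were among its top 3. The gate called layer 5 (Fezf2 and Bcl11b) was the weakest on this check, because none of its 3 check genes was highest there and Pcp4 ranked 11 of 13. In the gate of caudal ganglionic eminence (CGE) interneurons, Npas3 was highest but Caln1 ranked 9 of 13. Microglia and endothelial cells, which should largely lack these receptors, served as references for RNA that did not come from the cell itself.

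The 9 subunits fell into different patterns over the 12 gates. Gria1 and Gria4 were highest in interneurons of the medial ganglionic eminence (MGE), Gria2 in newborn excitatory neurons, and Gria3 and Grin2b in layer 6 neurons. Grin2a was highest in the layer 5 gate, Grin2d in CGE interneurons, and Grin3a in Sst-expressing MGE interneurons. Grin1 had its highest mean in Sst-expressing interneurons, where its libraries (70.4 and 29.1 CPM) overlapped with layer 6. The widest range was that of Gria1, from 11.7 ± 1.09 CPM (SD, n = 2) in radial glia to 2738 ± 335 CPM in Sst-expressing interneurons, and the narrowest was that of Gria2, from 128 ± 16 CPM in ganglionic eminence progenitors to 1318 ± 24.2 CPM in newborn excitatory neurons. In microglia and endothelial cells the levels were 64.2 and 101 CPM and 85.2 and 80.6 CPM for Gria2, 37.4 and 41.3 CPM and 30.01 and 42.7 CPM for Grin2b, 46.3 and 44.7 CPM and 32.4 and 37.9 CPM for Gria4, and 32.1 and 41.3 CPM and 8.4 and 3.16 CPM for Gria1. Levels in other gates near these values cannot be told apart from such background.

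**Figure D1:**
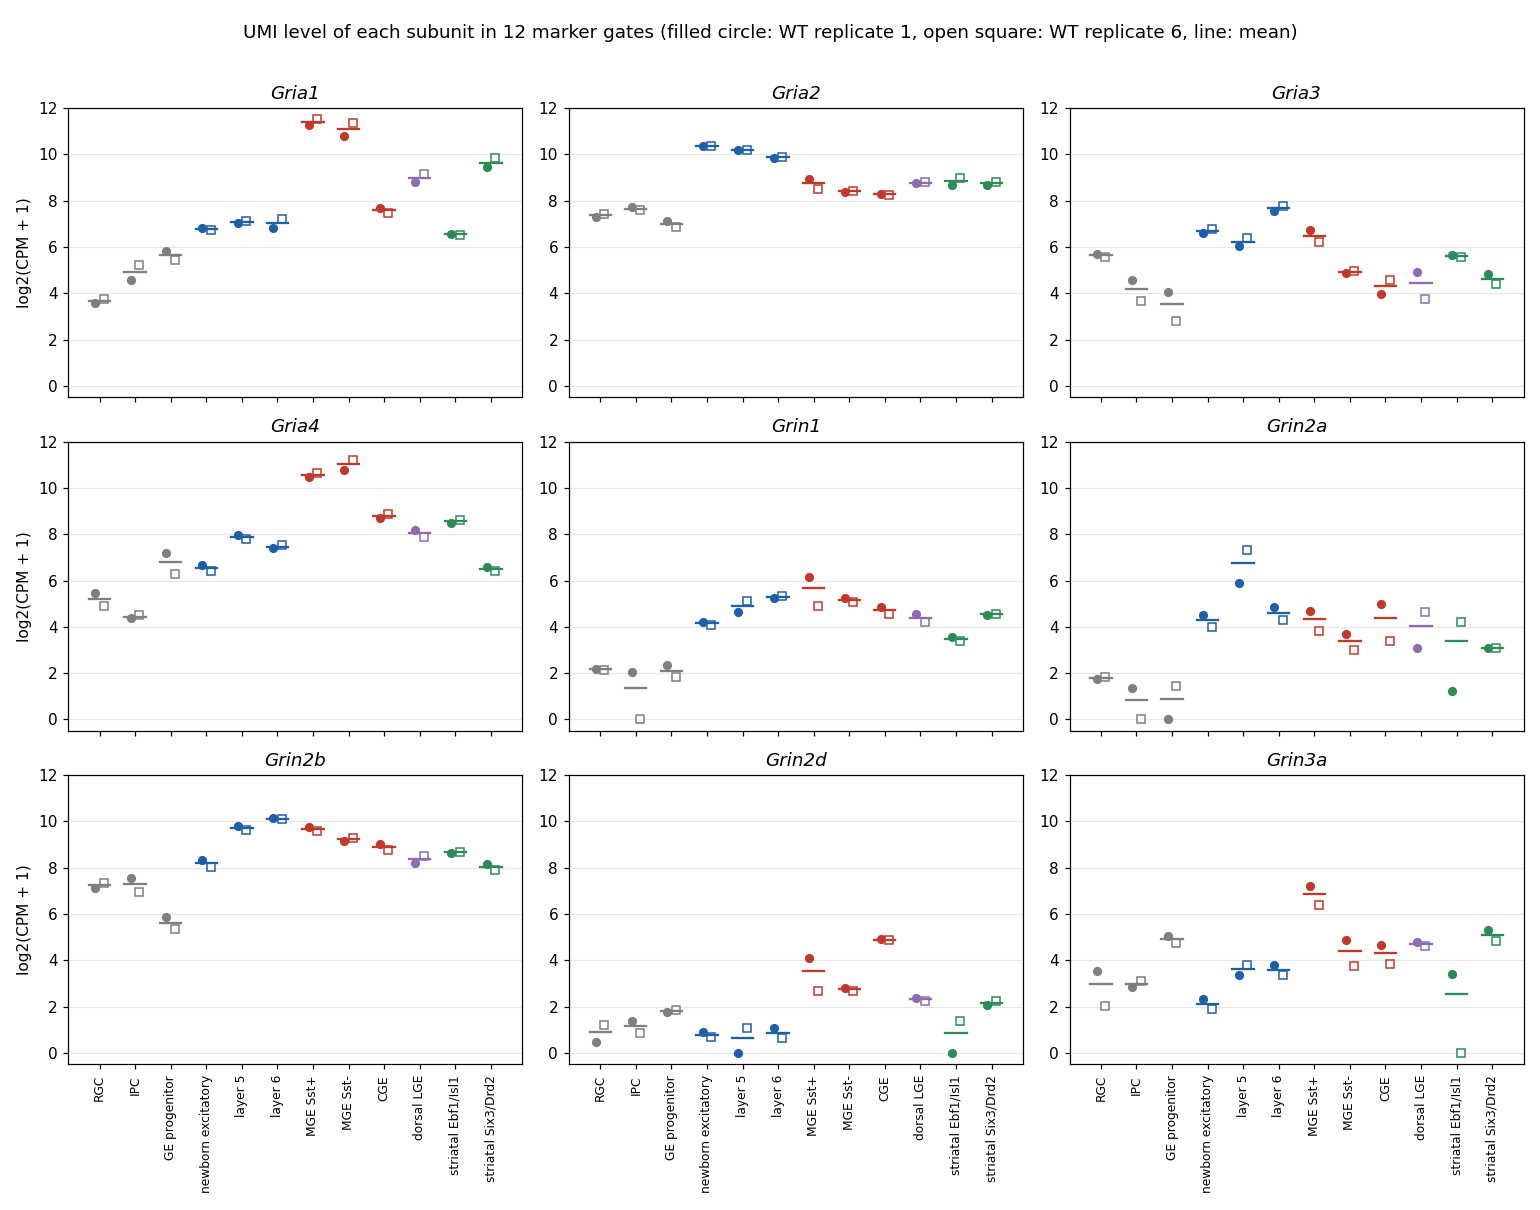
Each panel plots 1 subunit gene, with log2(CPM + 1) on the vertical axis and the 12 marker gates on the horizontal axis (grey progenitors, blue excitatory, red cortical interneurons, purple dorsal LGE, green striatal neurons). Filled circles are WT replicate 1, open squares WT replicate 6 and lines the mean; Gria1 and Gria4 peak in both MGE gates, whereas Gria2 is highest in the blue gates.

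Radial glia (RGCs), the primary progenitors of the cortex, and the Eomes-expressing intermediate progenitors (IPCs) that arise from them held less Gria2 and Grin2b than any neuron gate. Gria2 stood at 157 and 171 CPM in RGCs (WT replicate 1 and WT replicate 6, in this order throughout) and at 212 and 191 CPM in IPCs, and Grin2b at 137 and 161 CPM and 188 and 124 CPM, all above both reference gates. The lowest of these values, 124 CPM, lay above the highest reference value of Grin2b, 42.7 CPM. Gria3 was higher in RGCs (50.8 and 46.9 CPM) than in IPCs (22.7 and 11.7 CPM) without overlap, and its RGC levels exceeded both reference gates. Of the 6 subunits with enough UMIs to be tested, 3 passed the test between IPCs and RGCs, while 25.8% of all genes tested did: Gria3 was lower in IPCs (log2 difference -1.45 ± 0.27 SE, adjusted p = 7.19e-04; edgeR quasi-likelihood test with Benjamini-Hochberg adjustment over all genes tested, as in every comparison below), Gria4 was lower (-0.76 ± 0.27, adjusted p = 0.0464) and Gria1 was higher (1.36 ± 0.30, adjusted p = 0.00284). The Gria1 levels of 10.9 and 12.5 CPM in RGCs and 22.7 and 35.9 CPM in IPCs, and those of Gria4, 42.6 and 29.3 CPM and 19.6 and 21.7 CPM, overlapped with the microglial levels or lay below them, and both calls were lost with DESeq2 and with stricter gates. Gria2 differed by 0.34 ± 0.14 (adjusted p = 0.0824), and in the fit with the replicate block it passed (adjusted p = 0.0176). Grin2b (0.10 ± 0.17) and Grin3a (0.03 ± 0.55) did not pass. Grin1, Grin2a and Grin2d had at most 9 UMIs per gate and library and were not tested.

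Among 38 other genes of glutamate receptors and their partners (7 kainate and delta receptor genes, 2 further NMDA subunits, 14 auxiliary subunits and 15 scaffold and signalling genes), 29 were tested between IPCs and RGCs, 3 were higher in IPCs and 7 lower, with a median log2 difference of -0.05 against 0.01 over all genes. Grik1, a kainate receptor subunit, was lower in IPCs (log2 difference -2.46 ± 0.27 SE, adjusted p = 5.18e-06), as was Camk2a, the alpha subunit of the synaptic kinase CaMKII (log2 difference -2.3 ± 0.32 SE, adjusted p = 5.54e-05). Cacng5, an AMPA receptor auxiliary subunit of the TARP family, was higher (log2 difference 1.51 ± 0.28 SE, adjusted p = 6.81e-04).

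Cycling progenitors of the ganglionic eminences (GE progenitors) were gated on genes that include Gsx2, Dlx1 and Dlx2 together with a cycling gene. The level of Grin3a, which encodes the GluN3A subunit, set them apart from cortical progenitors but not from several inhibitory neuron gates. Grin3a stood at 32.5 and 25.6 CPM in GE progenitors, at 10.5 and 3.01 CPM in cortical RGCs and at 6.27 and 7.52 CPM in IPCs, with no overlap between GE and cortical progenitors. The GE level overlapped with Six3/Drd2 striatal neurons, dorsal LGE cells and MGE interneurons without Sst (means of 33.3, 25.1 and 20.4 CPM). Sst-expressing interneurons were higher, with a mean of 115 CPM. It made up 33.9% and 35.7% of the NMDA subunit UMIs in GE progenitors, and 6.84% and 1.75% in RGCs. Grin2b was at its lowest in GE progenitors, at 56.8 and 39.3 CPM, which overlapped with the reference gates, and the whole NMDA family held 118 and 84 UMIs there. Gria4 was at 144 and 77.8 CPM and Gria1 at 56 and 41.9 CPM, but the Gria1 UMIs sat in few cells: 15 of 124 and 10 of 131 cells had any, and the top 5 cells held 78.3% and 87.8% of them. For Grin3a the top 5 cells held 37.5% and 43.3%, out of 23 and 20 cells with a UMI. These gates were described and not tested against each other.

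Most subunits were higher in newborn excitatory neurons than in IPCs. Of 8 members tested, 7 were higher in newborn neurons and none lower, against 38.0% of all genes called in either direction. Among them, Grin1 and Grin2a entered the test through the newborn sums alone, so that only a higher call was open to these genes. Gria2 rose from 212 and 191 CPM in IPCs to 1301 and 1335 CPM in newborn neurons (log2 difference 2.81 ± 0.12 SE, adjusted p = 4.15e-07). Gria3 went from 22.7 and 11.7 CPM to 97 and 108 CPM (log2 difference 2.67 ± 0.21, adjusted p = 1.55e-05), Gria4 from 19.6 and 21.7 CPM to 102 and 84.2 CPM (2.28 ± 0.18, adjusted p = 1.70e-05), and Gria1 from 22.7 and 35.9 CPM to 113 and 105 CPM (2.01 ± 0.18, adjusted p = 3.07e-05). For all 4 AMPA genes, newborn neurons lay above IPCs in both libraries with no overlap.

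The NMDA subunits followed with unequal sizes. Grin2b was higher in newborn neurons by 1.0 ± 0.18 (adjusted p = 0.00181) on the log2 scale, from 188 and 124 CPM to 317 and 263 CPM. With no UMI of an exclusion gene allowed in a gate, this difference was 0.44 with an adjusted p of 0.0715. Grin1 had 4 and 0 UMIs in IPCs against 185 and 155 UMIs in newborn neurons, or 17.4 and 15.9 CPM (3.45 ± 0.55, adjusted p = 0.00106), and the 0 in WT replicate 6 allows up to 2.51 CPM (3 UMIs). The Grin1 difference came to 2.42 in WT replicate 1 and 5.35 in WT replicate 6. Grin2a had 2 and 0 UMIs in IPCs and 234 and 147 UMIs in newborn neurons (adjusted p = 7.17e-04), a ratio of CPM of 23.1 with an exact 95% interval from 6.36 to 192 that covers counting error only. The log2 difference of Grin2a was 3.61 within WT replicate 1 and 5.27 within WT replicate 6. Its UMIs in newborn neurons came from 60 of 1049 and 50 of 1070 cells, and the top 5 cells held 34.2% and 37.4% of them. Grin3a did not pass (-0.92 ± 0.44, adjusted p = 0.131), and Grin2d, with 9 and 6 UMIs in newborn neurons, was not tested. Without TMM scaling the median log2 difference over all genes moved from 0.01 to -0.10 here, and all 7 calls held.

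Of the 38 partner genes, 37 were tested, and 18 were higher and 7 lower in newborn neurons than in IPCs (median 0.65, all genes 0.01). The scaffold and signalling genes made up 9 of the higher genes. Dlg2, which encodes the postsynaptic scaffold PSD-93, was higher by 3.78 ± 0.19 (adjusted p = 1.06e-06) and Cacng2, which encodes the TARP stargazin, by 3.68 ± 0.30 (adjusted p = 1.79e-05). Grin2c, an NMDA subunit known from the cerebellum, was lower (-4.34 ± 0.65, adjusted p = 7.11e-04) on 6 and 11 UMIs in IPCs and 2 and 4 in newborn neurons.

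Grin1, Grin2b and Grin3a were higher in deep-layer than in newborn neurons, and for Grin2a and Gria3 the layer 5 and layer 6 gates diverged. In the layer 5 and layer 6 gates combined, Grin2b stood at 1056 and 986 CPM against 317 and 263 CPM in newborn neurons (log2 difference 1.86 ± 0.11 SE, adjusted p = 1.18e-05). In all, 7 of 8 tested members passed, 6 of them higher in deep-layer neurons, against 22.9% of all genes. Grin1 rose from 17.4 and 15.9 CPM to 33.3 and 37 CPM (1.13 ± 0.14, adjusted p = 6.07e-04) and Grin3a from 4.04 and 2.67 CPM to 11.8 and 10.6 CPM (1.77 ± 0.30, adjusted p = 0.00376). The Grin3a UMIs came from 16 of 182 and 12 of 191 layer 6 cells. In the layer 5 gate they came from 5 of 71 and 6 of 92 cells, and the top 5 cells held 100% and 91.7%. Grin2a was higher by 1.51 ± 0.27 (adjusted p = 0.00453), with 0.78 in WT replicate 1 and 2.17 in WT replicate 6. By gate, Grin2a was at 58 and 158 CPM in layer 5, where the top 5 cells held 74.4% and 59.9% of its UMIs, while layer 6, at 27.7 and 18.3 CPM, overlapped with newborn neurons at 22 and 15.1 CPM. Among the AMPA subunits, Gria4 (1.11 ± 0.11, adjusted p = 1.68e-04) and Gria3 (0.70 ± 0.10, adjusted p = 0.00122) were higher, and Gria2 was lower, at 995 and 1020.0 CPM against 1301 and 1335 CPM (-0.34 ± 0.08, adjusted p = 0.0138). Gria3 was above newborn neurons in layer 6, at 186 and 218 CPM, whereas the layer 5 gate, at 64.7 and 84 CPM, lay below newborn neurons at 97 and 108 CPM with no overlap. The Gria2 call was lost with doublets kept (adjusted p = 0.0531) and when all gates were fitted together (adjusted p = 0.171). Gria1 differed by 0.31 ± 0.11 (adjusted p = 0.0777) and passed with the replicate block (adjusted p = 0.0424), and Grin2d was not tested. Of the 38 partner genes, 19 were higher and 1 lower among 36 tested (median 0.55, all genes 0.00): the kainate subunit Grik3 was higher by 4.78 ± 0.25 (adjusted p = 6.40e-06) and Grip2, a PDZ protein that binds GluA2 and GluA3, by 2.69 ± 0.27 (adjusted p = 2.05e-04).

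Between the layer 5 and layer 6 gates, Grin2a and Gria3 differed in opposite directions. Gria3 was at 64.7 and 84 CPM in the layer 5 gate and at 186 and 218 CPM in layer 6, its highest gate (log2 difference -1.43 ± 0.17 SE, adjusted p = 1.90e-04). Grin2a was at 58 and 158 CPM against 27.7 and 18.3 CPM (2.27 ± 0.36, adjusted p = 0.00212), by library 1.08 in WT replicate 1 and 3.09 in WT replicate 6. The Grin2a UMIs were concentrated: 13 of 71 and 24 of 92 cells had any, and the top 5 cells held 74.4% and 59.9% of the 43 and 147 UMIs. These 2 of 8 tested members compare with 4.73% of all genes. With the replicate block 5 members passed, the added ones being Gria2 (log2 difference 0.32 ± 0.11, blocked adjusted p = 0.00549), Gria4 (0.43 ± 0.14, 0.0143) and Grin2b (-0.40 ± 0.12, 2.27e-04). Without a filter on low counts neither call held (adjusted p = 0.126 for Gria3 and 0.407 for Grin2a), and 2 genes in all passed. Gria1 (0.04 ± 0.17), Grin1 (-0.37 ± 0.24) and Grin3a (0.04 ± 0.42) did not pass, and Grin2d was not tested. Of 31 tested partner genes, 6 were lower and none higher in the layer 5 gate (median -0.38, all genes 0.00), among them Grik3 (-2.61 ± 0.22) and Neto2, a kainate receptor auxiliary subunit (-1.48 ± 0.18).

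Cortical interneurons and excitatory neurons differed in all 4 AMPA subunit genes. Summed over the MGE and CGE gates, interneurons carried Gria1 at 1298 and 1791 CPM, whereas postmitotic excitatory neurons (layer 5, layer 6 and a further excitatory gate that is not reported on its own) carried it at 81.2 and 98.3 CPM (log2 difference 4.01 ± 0.17 SE, adjusted p = 1.17e-06). Gria4 was at 1208 and 1568 CPM in interneurons against 202 and 211 CPM (2.66 ± 0.13, adjusted p = 2.30e-06). Gria2 went the other way, with 349.7 and 332 CPM in interneurons against 1370.3 and 1368 CPM (-2.1 ± 0.08, adjusted p = 6.95e-07), and so did Gria3, with 35.1 and 33.8 CPM against 86 and 92.3 CPM (-1.46 ± 0.10, adjusted p = 1.54e-05). The libraries of both summed classes were apart for all 4 genes. By gate this did not hold for Gria3, because Sst-expressing interneurons, at 89.3 ± 21.4 CPM (SD over libraries), overlapped with the excitatory sums.

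The NMDA subunits also split. Grin2d was higher in interneurons, with 46 and 36 UMIs against 9 and 10 UMIs in excitatory neurons, that is 16.1 and 13.7 CPM against 1.21 and 1.19 CPM (3.52 ± 0.31, adjusted p = 6.59e-05). Grin3a was higher too (45.2 and 22.8 CPM against 6.2 and 5.37 CPM; 2.47 ± 0.32, adjusted p = 6.28e-04). Of its 129 and 60 interneuron UMIs, 65 and 31 came from the Sst+ gate, where the top 5 cells held 49 and 23. By gate, MGE Sst- interneurons, at 20.4 ± 11.4 CPM (SD over libraries), overlapped with the layer 5 and layer 6 gates, at 11.2 ± 2.47 and 11.1 ± 2.32 CPM. Grin2a was lower in interneurons (-1.5 ± 0.27, adjusted p = 0.00358), with -1.01 in WT replicate 1 and -2.26 in WT replicate 6, and Grin2b was lower by a small margin (597 and 579 CPM against 766 and 741 CPM; -0.45 ± 0.08, adjusted p = 0.00338). The Grin2b difference did not hold for each gate, because Sst-expressing interneurons, at 815 ± 70.1 CPM (SD over libraries), overlapped with the excitatory sums. The Grin2a difference did not hold for each gate either. Layer 6, at 23 ± 6.6 CPM, overlapped with CGE interneurons and with Sst-expressing interneurons, the latter at 19.1 ± 8.29 CPM. Grin1, which every NMDA receptor needs, did not pass: interneurons had 38.9 and 28.5 CPM and excitatory neurons 29.2 and 35.7 CPM, and the difference was -0.04 ± 0.17 (adjusted p = 0.889). In all, 8 of 9 members passed, 4 in each direction, against 36.9% of all genes. Of all calls, 50.9% were higher in interneurons, and 62.2% without TMM scaling; the 8 member calls held under both.

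Kainate receptor genes accompanied the split. Of 7 kainate and delta genes, 6 were higher in interneurons and none lower (median 1.71, all genes -0.01), while auxiliary subunits (4 higher, 5 lower of 14) and scaffold and signalling genes (5 higher, 6 lower of 15) were mixed. The 3 genes named by size of difference were Neto1, an auxiliary subunit of kainate receptors (6.38 ± 0.12), Grik1 (5.19 ± 0.14) and the TARP gene Cacng3 (5.01 ± 0.23), each higher in interneurons in both libraries.

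**Figure D2:**
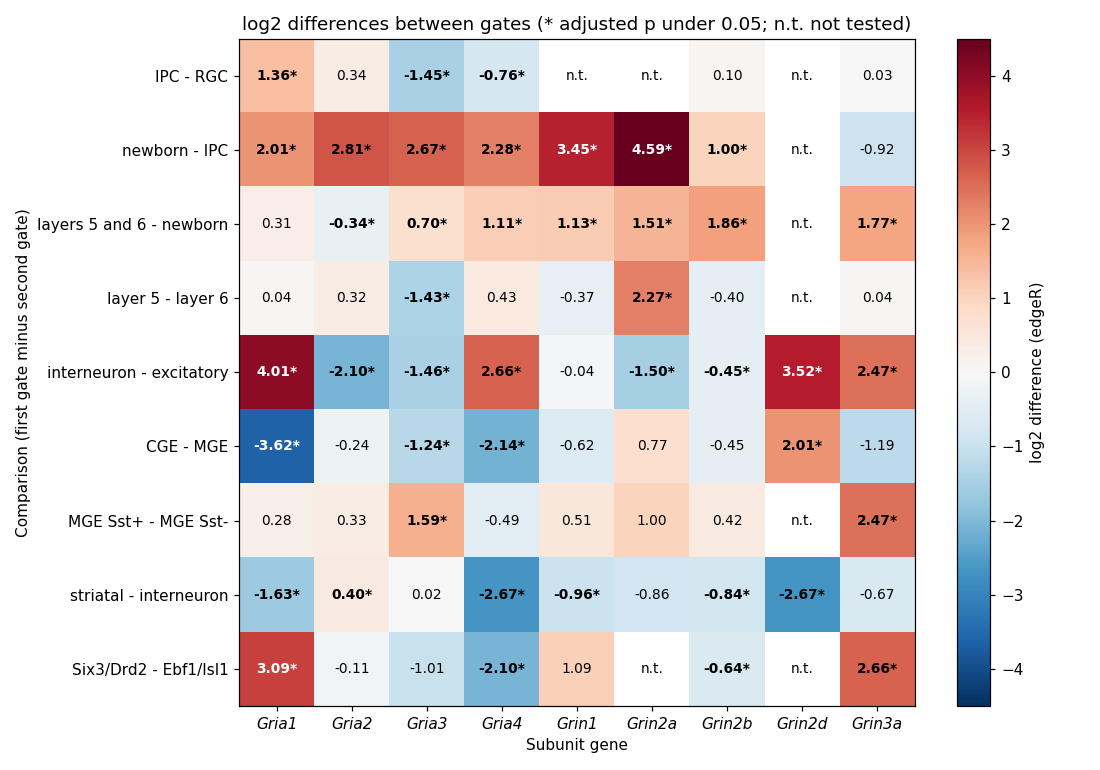
Rows are 9 comparisons between gates and columns the 9 subunit genes; color and number give edgeR's log2 difference (first gate minus second gate), an asterisk marks an adjusted p under 0.05, and n.t. marks genes with too few UMIs for a test. The row of newborn neurons against IPCs is positive for 7 genes, and the row of interneurons against excitatory neurons shows 4 positive and 4 negative calls.

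Gria1 and Gria4 separated interneurons of the MGE lineage, which yields Sst and parvalbumin interneurons, from those of the CGE. Gria1 stood at 1959 and 2723 CPM in MGE interneurons and at 206 and 177 CPM in CGE interneurons (log2 difference -3.62 ± 0.17 SE, adjusted p = 6.00e-07), and Gria4 at 1685 and 2202 CPM against 420.3 and 469.7 CPM (-2.14 ± 0.15, adjusted p = 6.27e-06). The 2 lineages did not overlap for either gene. Gria2 did not pass, with 370.5 and 350.2 CPM in MGE and 315 and 301 CPM in CGE interneurons (-0.24 ± 0.12, adjusted p = 0.363). Gria3 was lower in CGE interneurons (-1.24 ± 0.27, adjusted p = 0.0167), a call that was lost under 4 of 8 alternatives.

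Grin2d marked the CGE gate, where it had 31 and 27 UMIs (28.8 and 28 CPM), against 15 and 9 UMIs (8.45 and 5.39 CPM) in the larger MGE sums (2.01 ± 0.34, adjusted p = 0.00430; adjusted p = 0.0595 with DESeq2). No other gate reached the CGE level: the next were MGE Sst+ at 15.9 and 5.3 CPM and MGE Sst- at 5.99 and 5.41 CPM. In total 4 of 9 members passed, against 6.82% of all genes. Grin2b (-0.45 ± 0.13, adjusted p = 0.0604) and Grin3a (-1.19 ± 0.39, adjusted p = 0.116) were lower in CGE interneurons only with the replicate block (adjusted p = 0.00291 and 0.00686), and Grin1 (-0.62 ± 0.27, adjusted p = 0.259) and Grin2a (0.77 ± 0.50, adjusted p = 0.509) did not pass. Of 33 tested partner genes, 2 were higher and 10 lower in CGE interneurons (median -0.47, all genes 0.00), led by Cacng3, with 0 and 4 UMIs in the CGE sums against 174 and 217 in MGE (-5.8 ± 0.46, adjusted p = 1.84e-05), Neto1 (-4.33 ± 0.23) and Grik1 (-2.45 ± 0.14).

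Within the MGE lineage, cells with at least 1 Sst UMI differed from those without in Grin3a and Gria3. The Sst- gate also asked for a further MGE marker such as Sox6 or Nxph1, and the part of that rule in the differences was not tested. Grin3a was at 148 and 82.1 CPM in Sst+ cells and at 28.5 and 12.4 CPM in Sst- cells (log2 difference 2.47 ± 0.37 SE, adjusted p = 0.00876). The lower Sst+ library was above both Sst- libraries, but the level rested on 12 of 74 and 11 of 64 cells, of which the top 5 held 75.4% and 74.2% of the UMIs. Gria3 was at 104 and 74.2 CPM against 28.5 and 30.2 CPM (1.59 ± 0.26, adjusted p = 0.0148), from 17 and 14 Sst+ cells with a UMI. Of these cells the top 5 held 65.2% and 64.3% of the Gria3 UMIs. These 2 of 8 tested members compare with 1.61% of all genes. With cells of 3000 to 30000 UMIs and under 5% mitochondrial UMIs, neither passed (adjusted p = 0.0513 for Grin3a and 0.0562 for Gria3), while the log2 differences were 2.58 and 1.59. The Gria3 call was also lost with DESeq2 (adjusted p = 0.0997) and with stricter gates (adjusted p = 0.0643 in edgeR). Gria1 (0.28 ± 0.19), Gria2 (0.33 ± 0.18), Grin1 (0.51 ± 0.35), Grin2a (1.0 ± 0.52) and Grin2b (0.42 ± 0.16) did not pass, and Gria4, higher in Sst- cells, passed with the replicate block alone (log2 difference -0.49 ± 0.17, adjusted p = 0.217, blocked 0.0388). Grin2d was not tested. Of 33 tested partner genes, 3 were higher in Sst+ cells and none lower (median 0.15, all genes 0.01), and among them were Grik1 (1.96 ± 0.19) and Neto1 (1.93 ± 0.16).

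Striatal projection neurons, gated on Ebf1 with Isl1 or Zfp503, or on Six3 with Drd2, Sp9, Adora2a or Penk, were present although the dorsal telencephalon had been dissected. As a group they carried less Gria1 (434 and 549 CPM), Gria4 (209 and 221 CPM), Grin2b (332 and 316 CPM), Grin2d (1.78 and 2.81 CPM) and Grin1 (17.3 and 16.9 CPM) than cortical interneurons. The log2 differences were -1.63 ± 0.16 (adjusted p = 3.35e-05) for Gria1, -2.67 ± 0.14 (adjusted p = 2.58e-07) for Gria4, -0.84 ± 0.10 (adjusted p = 2.11e-04) for Grin2b, -2.67 ± 0.44 (adjusted p = 0.00172) for Grin2d and -0.96 ± 0.24 (adjusted p = 0.0204) for Grin1. Gria2 was higher, at 413 and 473 CPM (0.40 ± 0.11, adjusted p = 0.0305). Thus 6 of 9 members passed, against 15.5% of all genes. By gate the Gria1 difference held against MGE interneurons only, because CGE interneurons, with a mean of 191 CPM, lay below the striatal sums. The Gria2 difference did not hold for each gate, because Sst-expressing interneurons, at 430 ± 91.4 CPM (SD over libraries), overlapped with the striatal sums. The Gria2 call was lost under 3 of 8 alternatives and the Grin1 call under 2. Grin3a differed by -0.67 ± 0.35 (adjusted p = 0.246) and passed with the replicate block (adjusted p = 0.0137), and Gria3 (0.02 ± 0.18, adjusted p = 0.961) and Grin2a (-0.86 ± 0.51, adjusted p = 0.306) did not pass. Of 34 tested partner genes 8 were higher and 8 lower in striatal neurons (median 0.11, all genes 0.00); the lower ones included Cacng3 (-3.86 ± 0.29), the AMPA receptor auxiliary subunit Shisa6 (-3.17 ± 0.24) and Grip1 (-2.24 ± 0.11).

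The striatal gates differed from each other in Gria1 and Gria4. Gria1 was at 695 and 909.8 CPM in Six3/Drd2 neurons, a gate for cells of the indirect pathway, and at 94.5 and 90.9 CPM in Ebf1/Isl1 neurons, a gate for cells of the direct pathway (log2 difference 3.09 ± 0.17 SE, adjusted p = 2.86e-09). Gria4 showed the reverse, with 93.6 and 82.8 CPM against 360.1 and 396 CPM (-2.1 ± 0.15, adjusted p = 8.61e-08). Neither gene's libraries overlapped between the gates. Grin3a was higher in Six3/Drd2 neurons, on 37 and 22 UMIs against 7 and 0 UMIs (2.66 ± 0.60, adjusted p = 0.00941; 1.94 in WT replicate 1 and 5.12 in WT replicate 6), and Grin2b was lower (-0.64 ± 0.14, adjusted p = 0.00982). The Grin3a UMIs came from 6 of 144 and 9 of 150 Six3/Drd2 cells, and the top 5 cells held 97.3% and 81.8% of them. The Grin2b call was lost under 4 of 8 alternatives and the Grin3a call with DESeq2. In all 4 of 7 tested members passed, against 7.16% of all genes, while Gria2 (-0.11 ± 0.14, adjusted p = 0.854) and Grin1 (1.09 ± 0.43, adjusted p = 0.204) did not. Gria3 differed by -1.01 ± 0.30 (adjusted p = 0.0589) and passed with the replicate block (adjusted p = 0.0109), and Grin2a and Grin2d were not tested. The kainate subunits showed large differences too, Grik3 higher in Six3/Drd2 neurons (3.24 ± 0.18) and Grik2 lower (-2.25 ± 0.18), and Sorcs3, a sorting receptor of glutamate receptors, was lower (-2.45 ± 0.17). Over 29 tested partner genes 2 were higher and 6 lower (median -0.04, all genes 0.00).

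**Figure D3:**
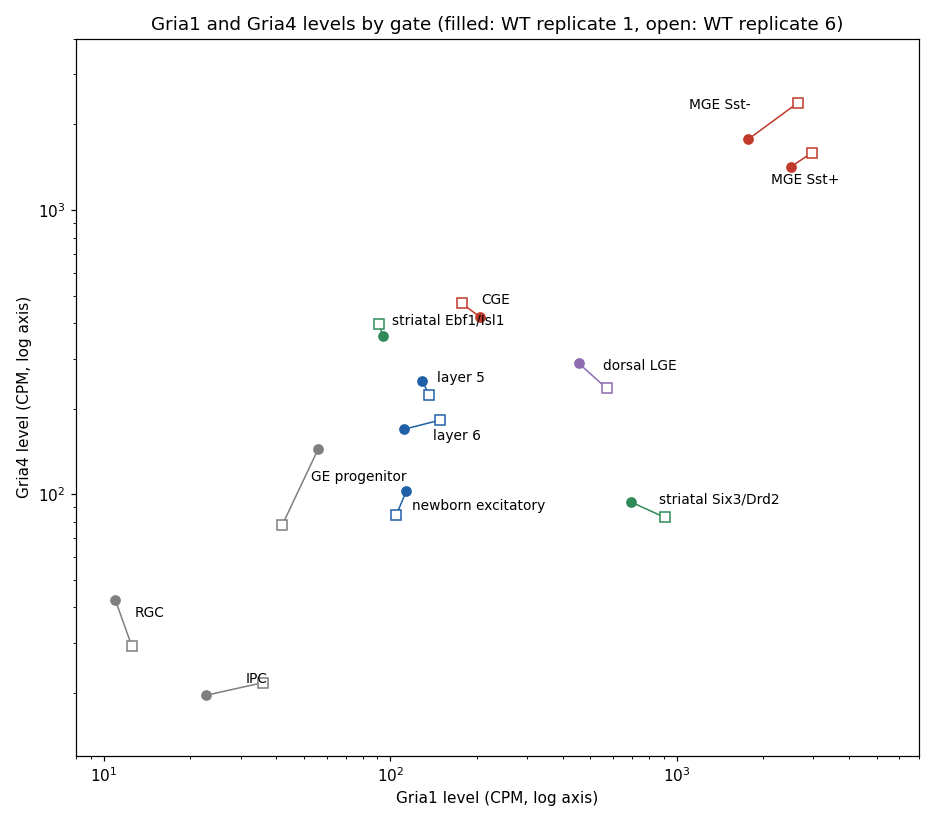
Levels of Gria1 (horizontal) and Gria4 (vertical) in CPM on log axes, with the 2 libraries of each gate joined by a line (filled WT replicate 1, open WT replicate 6). Both MGE gates lie at the upper right, and the 2 striatal gates lie on opposite sides, Six3/Drd2 neurons with high Gria1 and Ebf1/Isl1 neurons with high Gria4.

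The dorsal lateral ganglionic eminence (dorsal LGE) gate, defined by Tshz1 and Pbx3, held cells of the type that supplies the olfactory bulb. Its Gria1 level of 454 and 570.0 CPM ranked 4 of the 13 gates, between Six3/Drd2 striatal and CGE neurons with no overlap. Its Gria2 level of 434 and 447 CPM overlapped with both striatal gates, and its Gria4 level of 289 and 236 CPM overlapped with the layer 5 gate. Grin2b was at 295 and 365 CPM and overlapped with newborn excitatory neurons, and Grin3a was at 26.5 and 23.8 CPM. This gate entered no test.

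The share of each gene in the UMIs of its own family was compared between gates, gene by gene, since unequal intron content would distort a comparison between genes. The Gria2 share of AMPA subunit UMIs was 80.6% and 81.8% in newborn excitatory neurons, 72.5% and 72.3% in the layer 5 gate and 66.4% and 63.4% in layer 6. It was 33% and 31% in CGE interneurons, 11% and 7.3% in MGE Sst+ and 8.42% and 6.4% in MGE Sst- interneurons. Each of these 3 excitatory gates was thus above every interneuron gate in both libraries, and both MGE gates were below CGE. Ebf1/Isl1 striatal neurons fell between, with 45% and 48.8%, and Six3/Drd2 striatal neurons, with 33.7% and 30.6%, overlapped with CGE interneurons. The Gria3 share was highest in RGCs, at 19.5% and 18.1%, and next in layer 6, at 13.4% and 14.6%.

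The Grin2b share of NMDA subunit UMIs, compared between gates and not with the other subunits, ran from 57% ± 3.22 (SD, n = 2) in GE progenitors to 94.1% ± 0.886 in Ebf1/Isl1 striatal neurons. The Grin2a share reached 5.96% and 15.9% in the layer 5 gate and 6.08% and 5.08% in newborn neurons. The Grin3a share was 13.1% and 9.17% in Sst+ interneurons and 11% and 9.17% in Six3/Drd2 striatal neurons, against 1.12% and 0.898% in newborn excitatory neurons. In the Sst+ and Six3/Drd2 gates the top 5 cells held most of the Grin3a UMIs. For Grin2d it was 4.57% and 5.45% in CGE interneurons and 0.234% and 0.207% in newborn excitatory neurons. The Grin1 share in neurons ran from 2.39% ± 0.323 in Ebf1/Isl1 striatal neurons to 6.87% ± 0.897 in Six3/Drd2 striatal neurons.

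**Figure D4:**
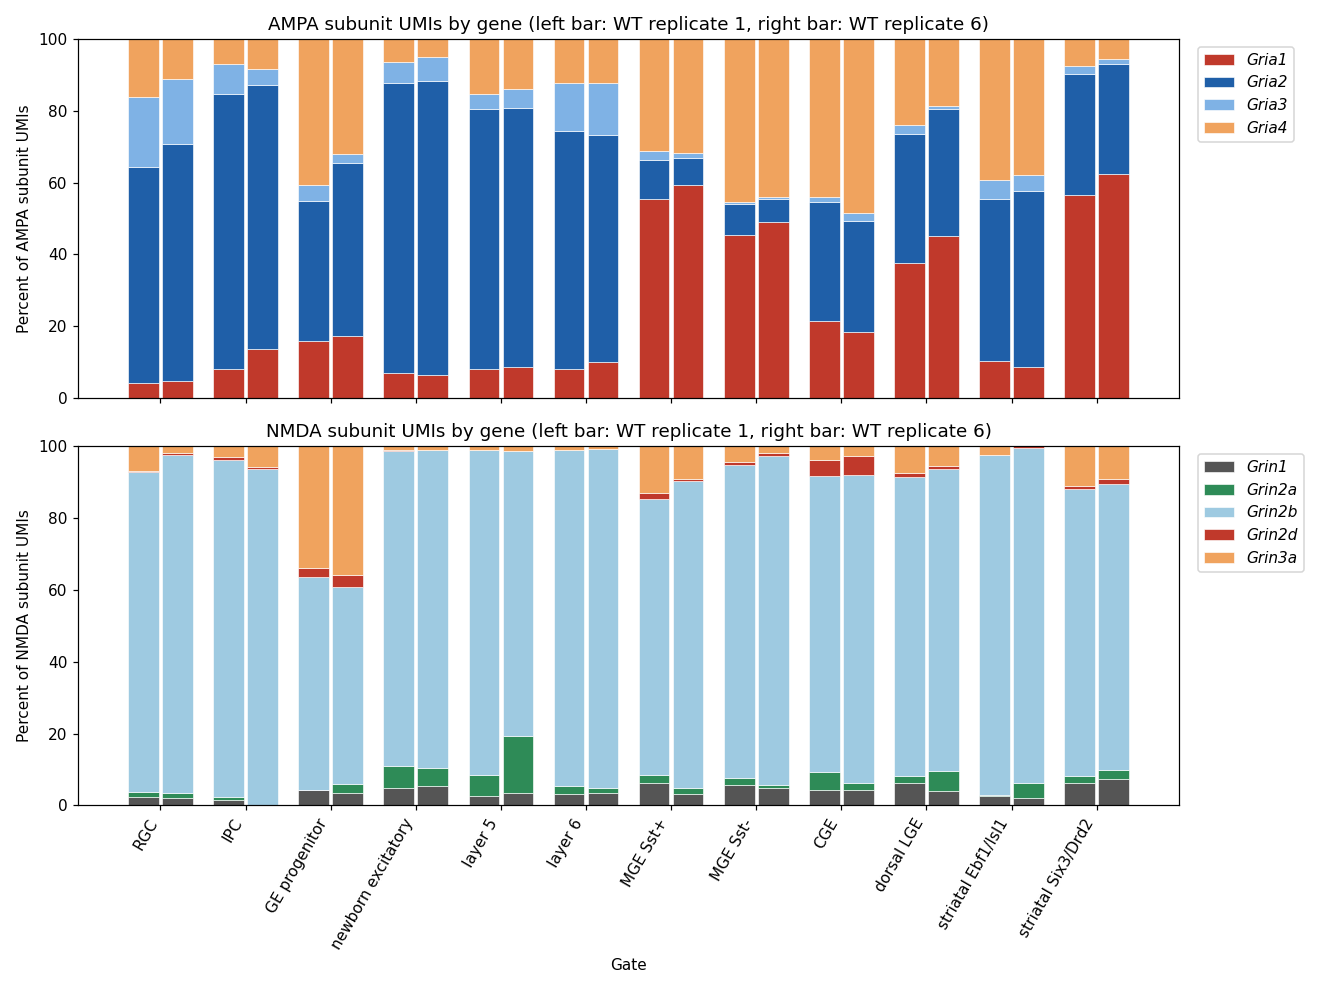
Stacked bars give the percent of AMPA (top) and NMDA (bottom) subunit UMIs that came from each gene, for 12 gates, with WT replicate 1 left and WT replicate 6 right in each pair. The Gria2 part (dark blue) of the AMPA bar is larger in the excitatory gates than in MGE Sst- interneurons, where it is 7.41 ± 1.43 percent, and Grin3a (orange) takes its largest part in GE progenitors.

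At equal depth similar patterns appeared cell by cell for the genes and gates given here, except that Grin1 in the layer 5 gate was too sparse to compare. After each cell had been thinned to 2000 UMIs, Gria2 was detected in 83.3% ± 0.757 (SD over libraries, n = 2) of newborn neurons, 77.4% ± 0.187 of layer 6 neurons, 43% ± 3.53 of CGE interneurons and 25.5% ± 0.511 of RGCs, against 12.1% ± 3.85 of microglia and 4.96% ± 2.73 of endothelial cells. Unthinned, these shares were 97.7%, 97.3%, 63.2%, 61.2%, 27.8% and 20.3%. Gria1 was detected in 87.8% ± 3.29 of MGE Sst+ and 71.9% ± 5.51 of MGE Sst- interneurons but in 14.1% ± 0.426 of CGE interneurons, with 6.19% ± 4.34 in microglia (unthinned 91.5%, 78.3%, 20.2% and 10.3%). The Gria1 shares in RGCs (1.92% ± 1.0) and IPCs (4.33% ± 2.97) were not above the microglial one. Gria4 was in 81.6% ± 6.39 of MGE Sst- interneurons, 37.8% ± 1.87 of Ebf1/Isl1 and 10.3% ± 0.653 of Six3/Drd2 striatal neurons, against 5.62% ± 0.628 of endothelial cells (unthinned 88.9%, 58.2%, 18.1% and 21%). Median depths before thinning ran from 3601 UMIs (dorsal LGE, WT replicate 6) to 15261 (endothelial cells, WT replicate 6), and from 0 to 56 cells per gate were too shallow to enter, the most in the MGE Sst- gate.

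Grin2b was detected in 27.3% ± 1.5 of newborn neurons, 77.9% ± 0.599 of layer 6 neurons and 72.9% ± 3.44 of MGE Sst+ interneurons, against 6.83% ± 0.818 of microglia (unthinned 48.1%, 92.5%, 87.9% and 12.7%). Grin1 was found in 7.21% ± 1.39 of MGE Sst-, 7.05% ± 1.82 of layer 6 and 6.71% ± 4.86 of MGE Sst+ cells, shares that did not differ beyond their spread (unthinned 13.7%, 28.1% and 21.3%). The Grin1 share was 1.82% ± 0.575 in the layer 5 gate and 3.31% ± 1.25 in newborn neurons (unthinned 20.4% and 12.2%). In WT replicate 1 the layer 5 share rested on 1 of 71 cells, with a 95% interval from 0.249% to 7.56%. These thinned shares therefore cannot rank the layer 5 gate against newborn neurons for Grin1. Grin1 was found together with Grin2b in the same cell in 6.77% ± 1.43 of layer 6 neurons, so that most layer 6 cells with Grin2b had no Grin1 UMI at this depth; non-detection does not show absence. In RGCs and IPCs the Grin1 shares, 1.36% ± 0.204 and 0.370% ± 0.524, were not above the endothelial share of 1.52% ± 2.14. Grin2d was found in 7.32% ± 2.37 of CGE interneurons and in 0 of 118 microglia, which allows a share of up to 2.54%, and Grin2a in 14.2% ± 8.17 of the layer 5 gate. At least 1 AMPA and 1 NMDA subunit were found together in 27.4% ± 2.57 of newborn neurons, 72.3% ± 2.27 of layer 6 neurons and 73.8% ± 0.101 of MGE Sst+ interneurons, against 10.5% ± 2.21 of RGCs, 3.56% ± 2.82 of microglia and 1.52% ± 2.14 of endothelial cells. Unthinned, these shares were 51.9%, 91.7%, 88.7%, 41.4%, 12% and 13%. The mean number of the 9 subunits per thinned cell was 0.618 in RGCs, 1.54 in newborn neurons, 2.42 in layer 6 and 3.31 in MGE Sst+ interneurons.

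**Figure D5:**
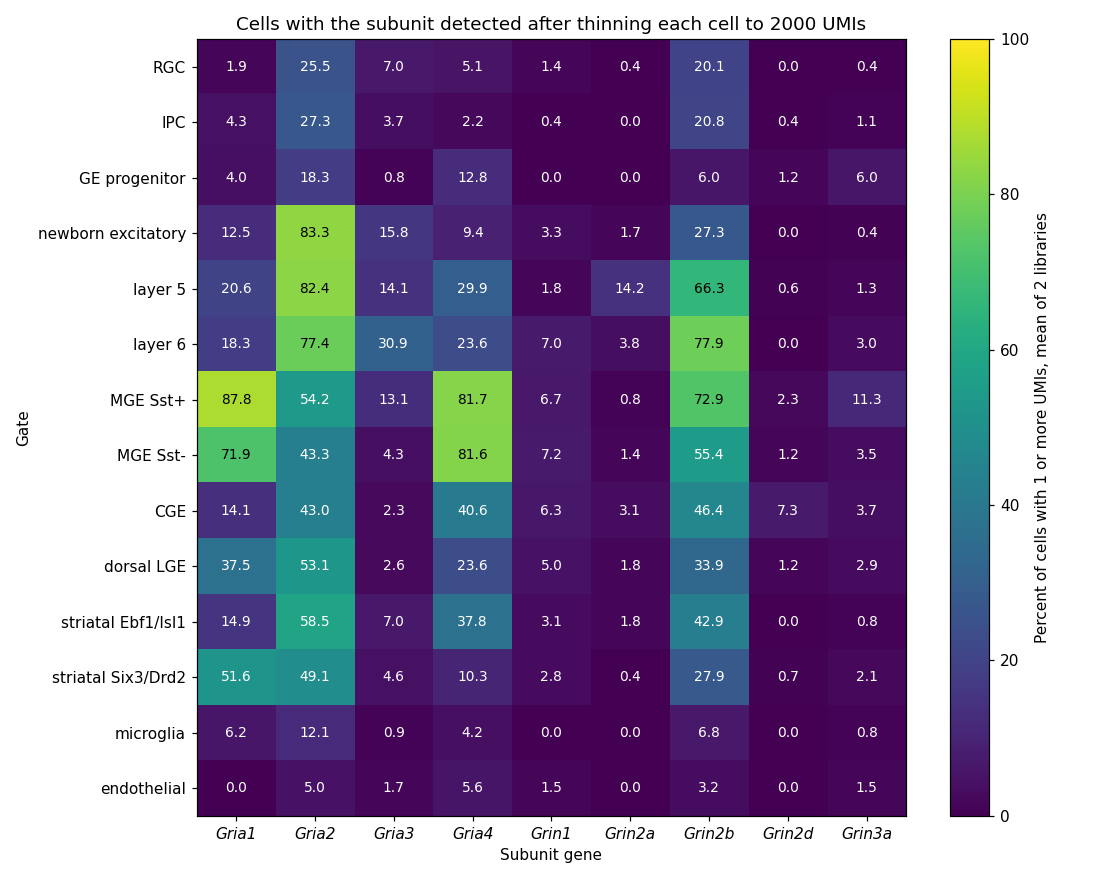
Rows are 12 gates and the 2 reference gates, columns the 9 subunit genes; color and number give the percent of cells with at least 1 UMI after thinning to 2000 UMIs per cell, as the mean of 2 libraries. Gria2 runs from 77.4% to 83.3% in the 3 excitatory gates, Gria1 reaches 71.9% and 87.8% in the MGE gates, and the 2 lowest rows show the background.

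Genes with the most similar pattern over the 13 gates were sought among 9671 genes that reached 20 CPM in at least 1 gate, by Pearson's r of log2(CPM + 10). These values describe the gates, which share libraries and markers, and carry no test. The 3 genes nearest to Gria1 were Galnt13 (r = 0.94), Blcap (r = 0.93), Fam227a (r = 0.92), those nearest to Gria2 were Znrf2 (r = 0.95), Gmip (r = 0.95), Fbxo10 (r = 0.94), those nearest to Gria3 were Slc24a2 (r = 0.87), Smarcd3 (r = 0.86), Exoc3 (r = 0.85), and a gene near to Gria4 was Kcnmb2 (r = 0.94). Grin1 was nearest to Sgsm2 (r = 0.98), Ptpn5 (r = 0.98), Srsf12 (r = 0.96), and Grin2b to Cdkl3 (r = 0.95), Tvp23a (r = 0.94), Ly6h (r = 0.94). Grin2a was nearest to Lonrf1 (r = 0.95), Gabra2 (r = 0.91), Sphkap (r = 0.90), among which Gabra2 encodes a GABA-A receptor subunit. Grin2d was nearest to Npas1 (r = 0.91), Rbl2 (r = 0.87), Pnoc (r = 0.86); Npas1 is a transcription factor of interneurons and Pnoc encodes the precursor of the peptide nociceptin. Grin3a was nearest to Zfp334 (r = 0.87), Rpp25 (r = 0.86), Dusp26 (r = 0.86). Among the members themselves the highest correlations were between Grin1 and Grin2b (0.88), Gria2 and Grin2a (0.80) and Gria1 and Gria4 (0.79), and the lowest was between Gria2 and Grin3a (-0.31).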

How the data were processed

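Single-cell suspensions from the dorsal telencephalon of 2 WT libraries at embryonic day 16.5 were sequenced with the 10x Genomics 3' kit. The authors deposited raw UMI counts per gene and cell for each library, without normalization, and the submitters' processing notes name Cell Ranger 7.0.0 and mm10; filters before deposit and the counting of intronic reads are not given in the sources used here. The deposited tables held 14136 and 13046 barcodes. The filter of 1500 to 60000 UMIs and under 10% mitochondrial UMIs passed 8139 and 8209 cells, and 920 and 857 likely doublets, scored against simulated doublets, were left out. Cells were gated on UMIs of marker genes, without clustering, with thresholds set after marker counts had been seen; cells in no gate or in more than 1 gate were not used.

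UMIs were summed per gate and library, and 10 comparisons of 2 sums against 2 were fitted in edgeR 4.0.16 (R 4.3.3; filterByExpr, TMM scaling, quasi-likelihood test, two-sided), with p-values adjusted by Benjamini-Hochberg over all genes tested and a threshold of 0.05. Each library gave a sum to both sides, so the sums of a library pair by origin: their deviations correlated at 0.168 to 0.324 over the 10 comparisons. The design was fixed without the replicate block, and blocked values stand where they change a call. A gene with few UMIs in one gate could enter a comparison through the other gate alone, and then only one direction was open to it. The scripts were tested on simulated data. Alternatives were DESeq2 1.42.0, no TMM scaling, no filter on low counts, the block, all gates in a single fit, doublets kept, stricter cells or gates, and leaving out a library. Thinning drew 2000 UMIs per cell, and intervals cover counting error only. All 9 members were named in each of the 9 comparisons reported. From a list of 38 partner genes, the 3 with the largest log2 difference were named, among those past the threshold and changed alike in both libraries. For likeness, the 3 genes with the highest correlation were named. Members and lists were chosen with earlier results of these data known. One excitatory gate, its comparison and some genes of the lists and gates are not reported here.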

Additional observations from a re-analysis of the deposited data

How the results depend on the processing

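All 43 member differences past the threshold kept their direction under each alternative that gave a value, and 29 stayed past it under all of them that were tested. DESeq2 lost 9, stricter gates 6, the stricter cell filter 5, a single fit 3, kept doublets 3 and no filter on low counts 2; the replicate block and no TMM scaling lost none, and the block added the calls given above and changed no other. The cause of these losses was not tested. With DESeq2 the members called fell from 3 to 1 for IPCs against RGCs, from 4 to 2 for CGE against MGE, from 2 to 1 for Sst+ against Sst- cells and from 4 to 2 for Six3/Drd2 against Ebf1/Isl1 neurons. Stricter gates gave 1 for Sst+ against Sst- cells and 2 for the striatal gates, and the stricter cell filter gave 0 for Sst+ against Sst- cells. For layer 5 against layer 6, 2 members became 0 with no filter and 5 with the replicate block.

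Over all genes, DESeq2 called fewer in each comparison, 3162 in place of 4955 for newborn neurons against IPCs and 50 in place of 146 for Sst+ against Sst- cells. For Sst+ against Sst- cells the stricter cell filter and stricter gates each called 25, kept doublets 68 and the replicate block 283. For layer 5 against layer 6, 476 became 2 with no filter and 903 with the block. Other counts that moved over 1.5 times were 1072 (no filter) and 459 (stricter cells) in place of 713 for CGE against MGE, 2769 (block) in place of 1770 for striatal neurons against interneurons, 1261 (stricter gates) in place of 2903 for IPCs against RGCs, and 371 (stricter gates) in place of 602 for the striatal gates. Leaving out a library left 1 sum against 1, a value with no test, so no count of calls could be made. Of 48 subunit shares recomputed with doublets kept or stricter gates, 31 moved by less than 1 SD, and of 360 detection shares recomputed with doublets kept or with 1500 or 3000 UMIs per cell, 152 did; a share of cells with a UMI depends on the number of UMIs drawn by construction.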
